A study of Mus musculus with 8 samples.

Results

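The genes described here are 10 genes of visceral endoderm, the epithelium that surrounds the early mouse embryo, takes up maternal protein and secretes plasma-type proteins before there is a liver. They were taken by symbol from a count table of 55401 genes. 4 of them form the uptake machinery of the apical membrane, namely Dab2, Cubn, Amn and Lrp2. The other 6 encode secreted products, namely Ttr, Afp, Apoa1, Apob, Apoe and Srgn. All 10 had enough counts to be tested. In the Zfp462 knockout, 7 of the 10 were called higher than in control embryonic stem cells (ESCs), where 8.30% of all genes tested were, and 8 of the 10 higher than in control embryoid bodies (EBs), where 4.75% were. The 8 calls became 4, those of Dab2, Cubn, Lrp2 and Srgn, when control EB replicate 1 was left out. The median log2 fold changes of the 10 genes were 1.89 and 1.07, against -0.03 and 0.00 over all genes tested. The EB values include a knockout library that held liver transcripts. Without it Apoa1 was 1.93-fold higher in place of 3.6-fold, Ttr 2.18-fold in place of 2.72-fold and Apob 1.77-fold in place of 2.07-fold. The 4 uptake genes were 2.07-fold to 2.4-fold higher without it and 1.94-fold to 2.28-fold with it.

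The study asked how loss of Zfp462, a zinc finger protein gene, affects self-renewal and differentiation of mouse ESCs. Poly(A)-selected RNA was sequenced from 4 groups, with 2 libraries in each. The control ESCs were wild-type cells of the R1 line and the knockout ESCs were stable R1 lines with Zfp462 knocked out, both kept undifferentiated (day 0) on gelatin in medium with serum and LIF, the cytokine that holds ESCs in self-renewal. The control EBs and the knockout EBs came from the same 2 genotypes, dissociated to single cells and grown as aggregates in Petri dishes for 3 days. Nothing in the labels states if partner libraries are separate cultures, or how many knockout clones were grown, so a p-value here measures only the spread between these libraries, which may be technical.

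Protein uptake in visceral endoderm is carried by very large receptors. Lrp2 (megalin) is a member of the LDL receptor family and binds many carriers directly. Cubn (cubilin) has no membrane anchor of its own and reaches the apical surface only with Amn (amnionless), a small transmembrane partner, while Dab2 is the cytoplasmic adaptor that links the receptors' tails to clathrin. Ligands of these receptors include transthyretin, vitamin carriers and apolipoproteins, so several secreted products of the tissue are also cargo of its receptors.

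The positions on mm10 were chr15:6299788-6440712 (plus strand) for Dab2, chr2:13276338-13491813 (minus strand) for Cubn, chr12:111271095-111276426 (plus strand) for Amn and chr2:69424340-69586065 (minus strand) for Lrp2. Among the secreted products, Afp lay at chr5:90490737-90508907 (plus strand), Apoa1 at chr9:46228580-46230466 (plus strand), Apob at chr12:7977648-8016835 (plus strand), Apoe at chr7:19696109-19699188 (minus strand) and Srgn at chr10:62493833-62527451 (minus strand). All 10 were annotated as protein coding in GENCODE M21. Cubn and Lrp2 share a chromosome, as do Amn and Apob, but neither pair lies side by side.

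The 4 uptake genes rose together in the knockout at both stages, so the sequence just upstream of their starts is shown, 5′ to 3′ on the strand of the gene, from RefSeq on GRCm38.p6. The Dab2 stretch is chr15:6299539-6299787 on the plus strand. The Cubn stretch is chr2:13491877-13492126 on the minus strand. The Amn stretch is chr12:111270846-111271094 on the plus strand. The Lrp2 stretch is chr2:69586066-69586279 on the minus strand.
Dab2: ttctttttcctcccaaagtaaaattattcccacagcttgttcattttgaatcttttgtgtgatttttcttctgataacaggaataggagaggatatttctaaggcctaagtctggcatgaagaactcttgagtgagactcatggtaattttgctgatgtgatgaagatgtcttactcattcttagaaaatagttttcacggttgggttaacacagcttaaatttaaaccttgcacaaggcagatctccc
Cubn: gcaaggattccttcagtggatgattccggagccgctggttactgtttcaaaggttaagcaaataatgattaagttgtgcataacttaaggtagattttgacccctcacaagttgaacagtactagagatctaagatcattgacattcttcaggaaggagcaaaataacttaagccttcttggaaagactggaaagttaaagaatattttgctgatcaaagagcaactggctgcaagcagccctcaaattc
Amn: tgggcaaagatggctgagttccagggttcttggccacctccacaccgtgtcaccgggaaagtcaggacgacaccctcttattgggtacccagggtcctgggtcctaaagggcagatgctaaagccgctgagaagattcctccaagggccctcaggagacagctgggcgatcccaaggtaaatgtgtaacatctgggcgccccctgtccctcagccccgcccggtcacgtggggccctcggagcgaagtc
Lrp2: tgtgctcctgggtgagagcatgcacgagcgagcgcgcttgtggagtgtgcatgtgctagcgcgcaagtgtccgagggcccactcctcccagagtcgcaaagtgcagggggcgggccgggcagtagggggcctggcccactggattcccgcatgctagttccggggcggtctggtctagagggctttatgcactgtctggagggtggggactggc

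These promoters differed in composition. The 300-base window around the first Dab2 start held 37.7% G and C, at percentile 6.63 of 32851 mouse windows of that length, and the Cubn window held 44.3%, at percentile 20.1. The Amn and Lrp2 windows held 62.3% and 65%, at percentiles 76.2 and 81.7. 2 motifs were searched on both strands in the 13 windows of the 9 genes with an entry, the GATA factor motif AGATAA and AAGTCCA, which is part of the site of the nuclear receptor HNF4. AGATAA was present in 11.2% of all 32851 windows and AAGTCCA in 4.17%. Dab2 was the only gene of the 9 whose windows held an exact match, 1 of each motif, at its 2 annotated starts. Variants of these letters were not searched, so a window without a match may still hold a site of either factor. The matches stand in capitals between their flanks. The first is the reverse complement of AGATAA, 15 bases into the transcript at chr15:6299791-6299820, and the second is AAGTCCA on the strand of the gene, 10 bases before the other start at chr15:6386726-6386755. A match is a description of letters and not evidence of binding.
Dab2, first start: attctctttggcTTATCTgctgtgcatttt
Dab2, other start: gggggagttaccAAGTCCAggcagcaaaaa

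The libraries held 12119763 to 16228426 counts, and levels are given as CPM, the count of a gene scaled to a fixed library size, with TMM factors. Zfp462 itself was lower in the knockout libraries, at 104 to 106.6 CPM against 183.2 to 196.9 CPM in ESCs, and at 102 to 102.5 CPM against 130.3 to 153.5 CPM in EBs. 5 stem cell markers summed to 3131 and 3160 CPM in control ESCs and to 2163 and 2021 CPM in knockout ESCs. In EB libraries they summed to 1397 to 1476 CPM. 4 markers of early differentiation summed to 300.5 to 359.8 CPM in ESC libraries. Their sums were 1734 and 1836 CPM in control EBs and 1102 and 1079 CPM in knockout EBs. 2 libraries stood apart. Liver transcripts were present in knockout EB replicate 1, with 18 liver markers summing to 2288 CPM against 6.025 to 30.43 CPM in the other 7 libraries and albumin (Alb) at 1335 CPM against 0 in knockout EB replicate 2. In knockout ESC replicate 2, the difference from its partner followed the GC content of the gene across genes (r = 0.46, a description across genes, against -0.0284 to -0.00266 in the other groups).

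The uptake genes were present in every library. The level of Lrp2, the main receptor, was 299.9 and 312.9 CPM in the pair of control ESC libraries, 1069 and 1275 CPM with the knockout, 733.2 and 823.4 CPM in control EBs, and 1415 and 1607 CPM in the knockout EBs. The groups did not overlap, and the order from lowest to highest was control ESCs, control EBs, knockout ESCs and knockout EBs. With 2 libraries a group such a lack of overlap is common, being found in 52.6% and 59.4% of all genes tested when knockout was set against control at the ESC and EB stage, and in 64.9% and 58.1% when the stages were compared in control and in knockout cells. Cubn, the co-receptor, went from 202.4 and 214.6 CPM in control ESCs to 952.3 and 1141 CPM in those with the knockout, and from 561.7 and 596 CPM in control EBs to 1260 and 1381 CPM in the knockout EBs. Dab2, the adaptor, went from 190.1 and 193.4 CPM to 803.6 and 831.1 CPM between control and knockout ESCs, and from 549 and 529.1 CPM to 1085 and 1203 CPM between control and knockout EBs. Both genes followed the order of Lrp2, again with no overlap between groups, so that knockout ESCs held more of these 3 transcripts than control cells held after 3 days of differentiation. Amn, the partner of cubilin, had 7.654 and 7.802 CPM in the ESC controls, 41.49 and 18.27 CPM in ESCs with the knockout, 30.96 and 32.55 CPM in the EB controls and 65.22 and 72.59 CPM in EBs with the knockout. Its knockout ESC libraries lay far apart and on either side of the control EBs. Amn has a GC content of 62.9%, at percentile 98.9 of the genes tested, and the low value was that of the library with the GC trend.

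**Figure D1:**
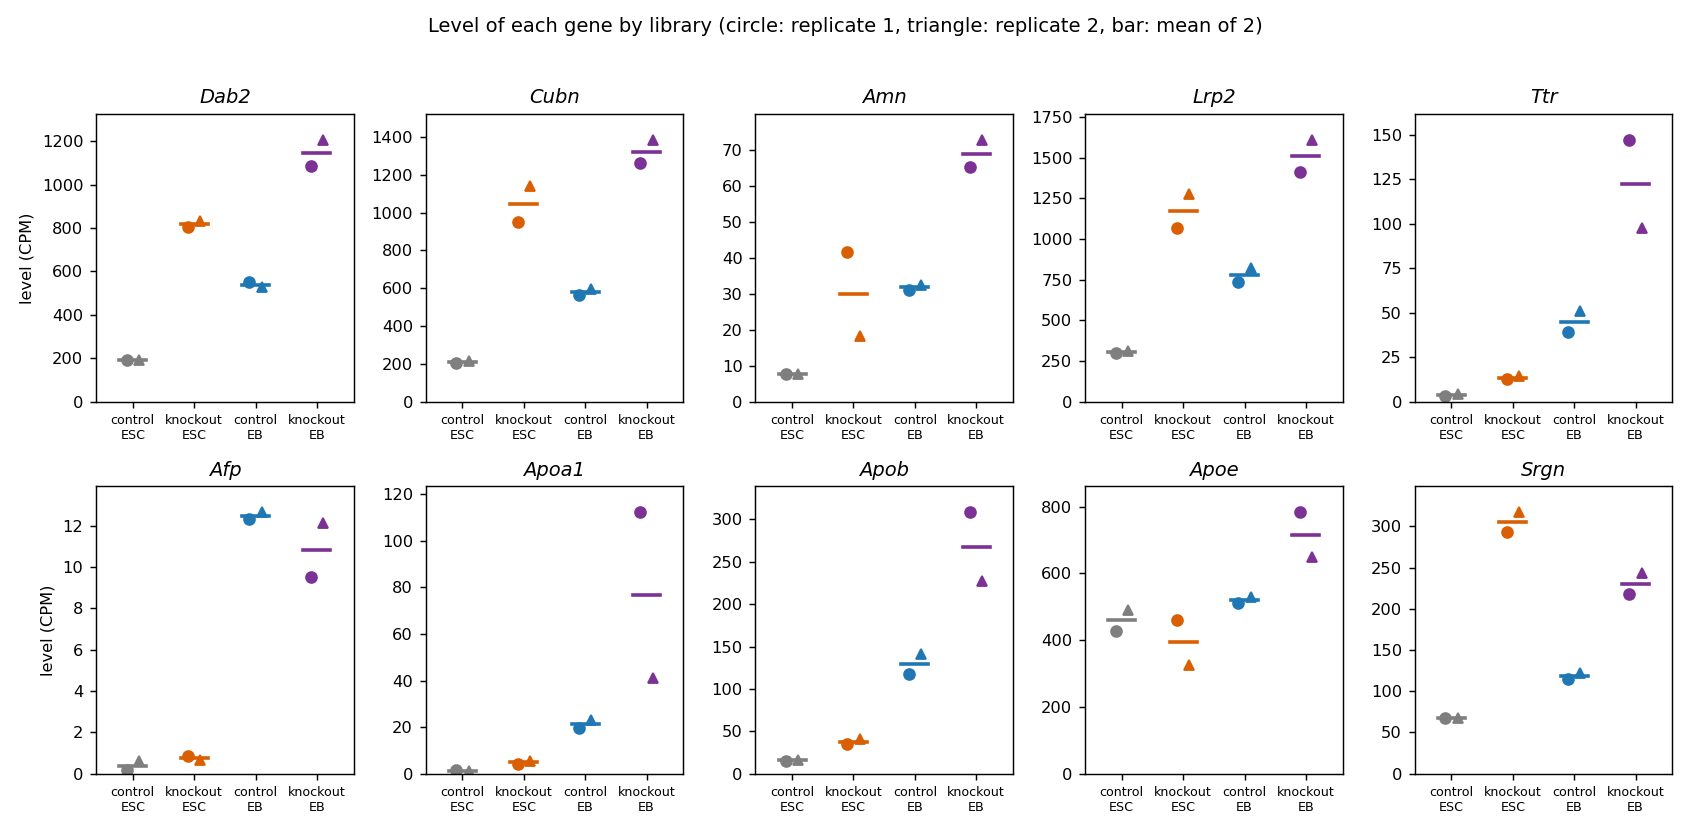
Level of each of the 10 genes in every library, in CPM on a linear axis that starts at 0, by group; circles are replicate 1, triangles replicate 2 and bars the mean of the 2. Dab2, Cubn, Lrp2 and Srgn were higher in knockout ESCs than in control EBs, whereas Ttr, Afp, Apoa1 and Apob were higher in both EB groups than in both ESC groups.

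In ESCs, all 4 uptake genes rose in the knockout. Among all 17125 genes tested, 8.30% were called higher and 6.20% lower in this comparison, 14.5% in all, at an adjusted p below 0.05 (edgeR's quasi-likelihood test, two-sided, Benjamini-Hochberg adjustment over all genes tested). Cubn rose 5.02-fold (log2 fold change 2.33 ± 0.10 SE, 2 libraries a group, edgeR adjusted p = 7.92e-07) and Dab2 rose 4.26-fold (2.09 ± 0.08, edgeR adjusted p = 7.92e-07). Lrp2 rose 3.82-fold (1.94 ± 0.10, edgeR adjusted p = 3.32e-06). Amn rose 3.86-fold (1.95 ± 0.31, edgeR adjusted p = 0.00204). The log2 fold change of Amn was 2.42 without the library with the GC trend, 1.23 with that library alone and 2.05 with the GC trend removed, and its call was lost without control ESC replicate 2 (edgeR adjusted p = 0.0564). These are bulk samples, in which more cells of a type and more RNA per cell cannot be told apart.

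In EBs, all 4 uptake genes were again higher in the knockout. Among all genes tested, 4.75% were called higher and 2.04% lower, 6.80% in all. Cubn rose 2.28-fold (log2 fold change 1.19 ± 0.10 SE, edgeR adjusted p = 9.27e-05), Dab2 2.12-fold (1.08 ± 0.08, edgeR adjusted p = 6.16e-05) and Lrp2 1.94-fold (0.96 ± 0.10, edgeR adjusted p = 0.000421). Amn rose 2.17-fold (1.12 ± 0.27, edgeR adjusted p = 0.0368), a call that did not hold with DESeq2 (adjusted p = 0.0793), with a stricter filter on low counts, or without any 1 of the 4 EB libraries or of the 2 control ESC libraries (edgeR adjusted p = 0.108 to 0.302). In the liver-bearing knockout EB library, the uptake genes stood at 0.881 to 0.912 times their level in replicate 2. The part of liver transcripts in this difference was not tested. Without that library Dab2, Cubn and Lrp2 were higher by 1.16, 1.26 and 1.05 on the log2 scale and still called.

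The effect of the knockout on Dab2, Cubn and Lrp2 was smaller in EBs than in ESCs. The difference between the effects was -1.14 ± 0.13 (SE) on the log2 scale for Cubn (edgeR's quasi-likelihood test of the interaction, adjusted p = 0.00573), -1.01 ± 0.11 for Dab2 (edgeR adjusted p = 0.00389) and -0.98 ± 0.14 for Lrp2 (edgeR adjusted p = 0.013). Among all genes tested, 0.642% were called lower and 0.742% higher for this difference, 1.38% in all. For Amn the difference was -0.83 with a 95% interval of -1.74 to 0.08 (edgeR adjusted p = 0.451), and it turned on 1 library. It was -1.30 and called without the library with the GC trend (edgeR adjusted p = 0.00123), and -0.10 and not called with that library as the lone knockout ESC library (edgeR adjusted p = 0.736). The calls for Dab2, Cubn and Lrp2 were lost when control ESC replicate 1, control ESC replicate 2 or control EB replicate 2 was left out, with edgeR adjusted p-values of 0.071 to 0.177. Cubn and Lrp2 were also not called without control EB replicate 1 (edgeR adjusted p = 0.059 and 0.0891), nor Lrp2 without knockout EB replicate 1 (edgeR adjusted p = 0.0805). The differences kept their sign in every one of the 8 fits that left out 1 library, at -1.25 to -0.9977 for Cubn, -1.08 to -0.92 for Dab2 and -1.08 to -0.84 for Lrp2.

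**Figure D2:**
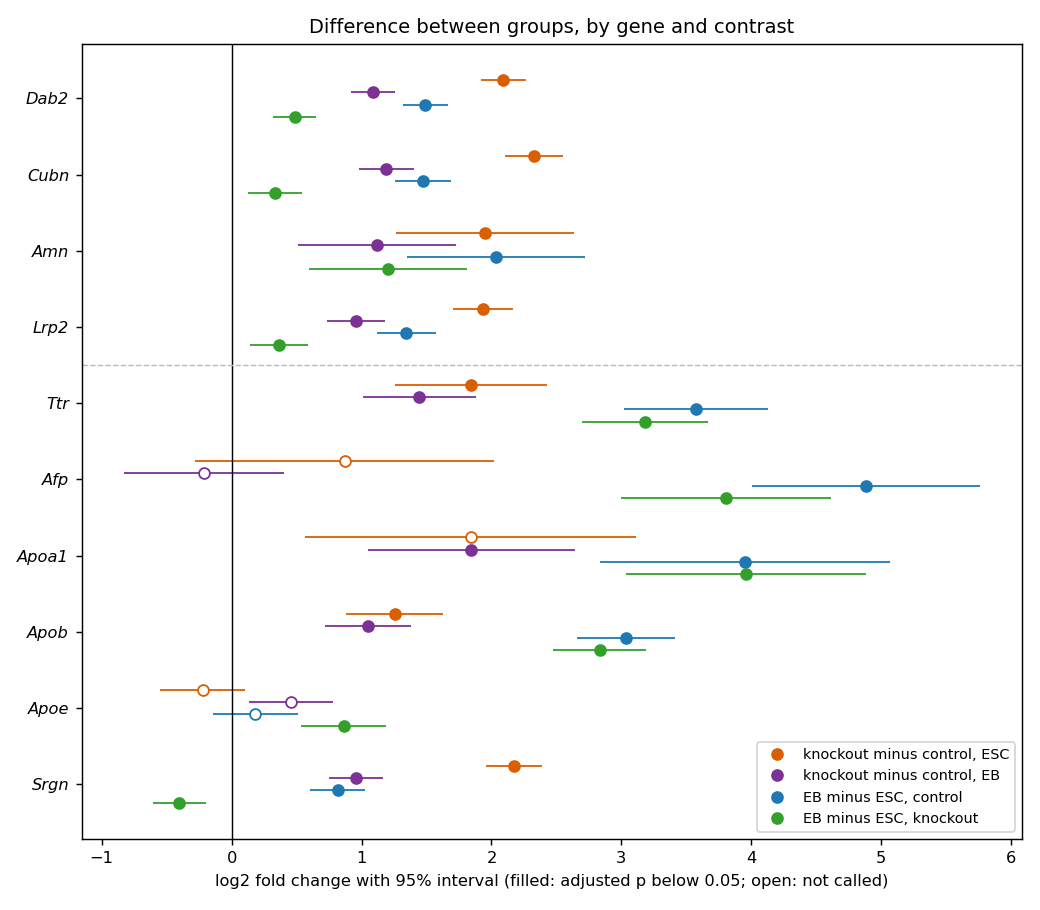
Log2 fold change of each gene with its 95% interval in 4 comparisons, knockout minus control in ESCs and in EBs and EB minus ESC in control and in knockout cells; filled points had an adjusted p below 0.05. Dab2, Cubn, Lrp2 and Srgn have their largest shift in the knockout ESC comparison (1.94 to 2.33), whereas Ttr, Afp, Apoa1 and Apob have theirs between stages (2.83 to 4.88).

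Differentiation for 3 days raised the uptake genes in control cells, where 8.60% of all genes tested were called higher and 9.63% lower, 18.2% in all. The rise was 4.10-fold for Amn, 2.81-fold for Dab2, 2.78-fold for Cubn and 2.54-fold for Lrp2 (log2 fold changes 2.04 ± 0.31, 1.49 ± 0.08, 1.47 ± 0.10 and 1.35 ± 0.10 SE, edgeR adjusted p = 0.00151, 2.09e-06, 7.65e-06 and 1.63e-05). In knockout cells, where 8.23% of all genes were called higher and 7.11% lower, 15.3% in all, the steps were 2.31-fold, 1.40-fold, 1.26-fold and 1.29-fold in the same order (edgeR adjusted p = 0.0159, 0.0023, 0.0383 and 0.035). The Amn step was 1.66-fold without the library with the GC trend and 3.81-fold with it as the lone knockout ESC library. Dab2 kept its call in knockout cells in each of the 8 fits without 1 library, whereas the calls of Cubn, Amn and Lrp2 were lost without any 1 of the 4 EB libraries or the 2 control ESC libraries (edgeR adjusted p = 0.0508 to 0.25). Fitted on the compared groups alone, none of the 4 uptake genes was called between stages in knockout cells. The edgeR adjusted p was 0.0563 for Dab2, 0.107 for Amn, 0.15 for Lrp2 and 0.166 for Cubn. The knockout and stage comparisons share libraries with one another, so their values are set side by side and not correlated.

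The proportions between the uptake transcripts were compared within each library, per kb of exonic sequence. Cubn stood at 0.755 and 0.767 times Lrp2 in control ESCs and at 0.857 and 0.809 times Lrp2 in control EBs. It stood at 0.996 and 1.00 times Lrp2 in knockout ESCs and at 0.996 and 0.961 times Lrp2 in knockout EBs. At both stages the 2 knockout libraries lay above the 2 control libraries. The absolute size of the ratio depends on the exonic length taken for each gene, 14935 bases for Cubn and 16701 bases for Lrp2. It therefore does not give equal numbers of the 2 transcripts. Amn stood at 0.306 and 0.295 times Cubn in control ESCs, 0.447 and 0.443 in control EBs and 0.419 and 0.426 in knockout EBs. In knockout ESCs the ratio was 0.353 in replicate 1 and 0.13 in the library with the GC trend.

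**Figure D3:**
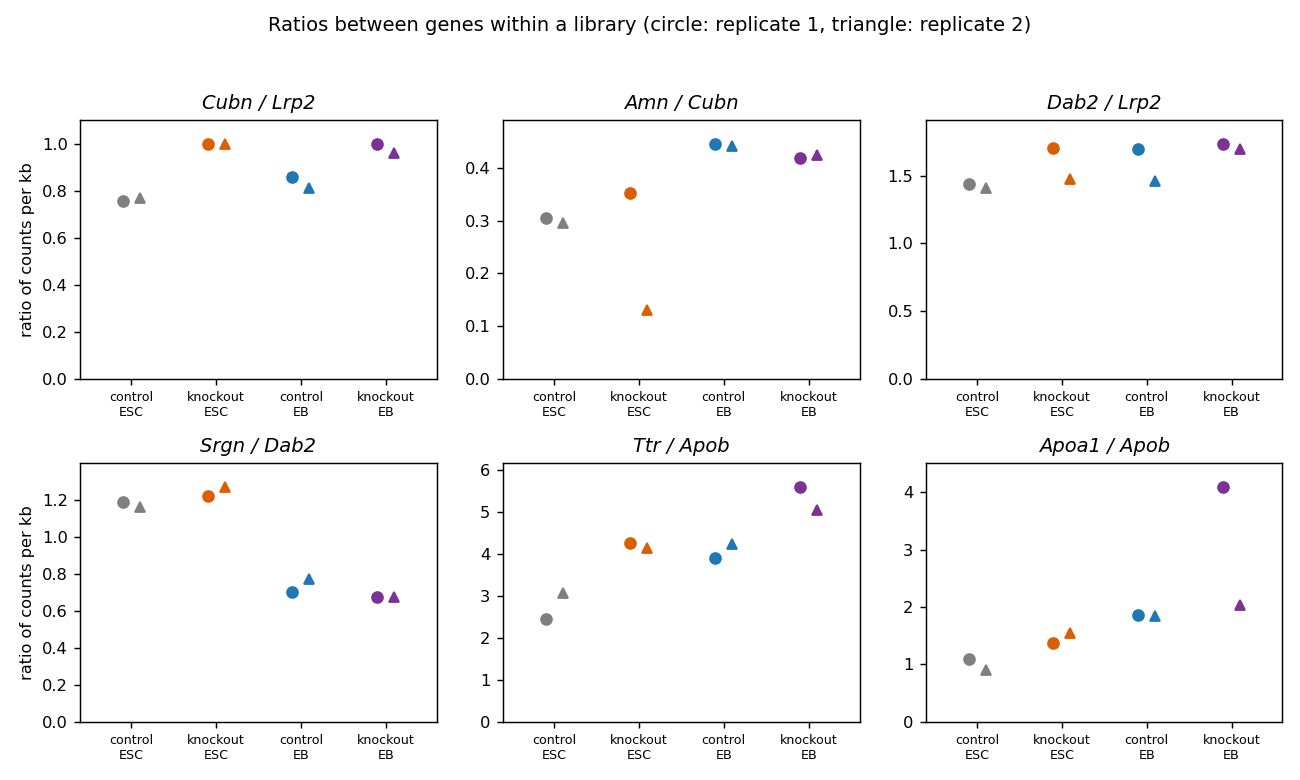
Ratios between genes within each library, as counts per kb of exonic sequence, on linear axes that start at 0; circles are replicate 1 and triangles replicate 2. Cubn over Lrp2 lies at 0.755 to 0.857 in the control libraries and 0.961 to 1.00 in the knockout libraries, and Apoa1 over Apob reaches 4.10 in knockout EB replicate 1 against 2.04 in replicate 2.

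The secreted products fell into several patterns. Ttr (transthyretin, carrier of thyroid hormone and of the retinol-binding protein complex), Apoa1 (the main protein of HDL) and Apob (the scaffold of LDL and VLDL) rose with differentiation and were higher again in the knockout. Afp, a fetal albumin-like protein, followed differentiation without a knockout call. Apoe, a ligand of LDL receptor family members, held 327 CPM or more in every library. Srgn (serglycin), the core protein of a secreted proteoglycan, was higher in the knockout at both stages, as the uptake genes were. Unlike them, it stood lower in knockout EBs than in knockout ESCs.

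Ttr went from 3.176 and 4.239 CPM in control ESCs to 12.54 and 14.41 CPM in those with the knockout, and stood at 39.05 and 50.82 CPM in the EB controls. In knockout EBs it was 97.63 CPM in replicate 2 and, given apart, 146.8 CPM in the library with liver transcripts. No groups overlapped. The knockout effect was 3.58-fold in ESCs (log2 fold change 1.84 ± 0.26 SE, edgeR adjusted p = 0.00111) and 2.72-fold in EBs (1.45 ± 0.20, edgeR adjusted p = 0.00192), or 2.18-fold in EBs without the library with liver transcripts (edgeR adjusted p = 0.016). The call in EBs was lost without control EB replicate 1 (edgeR adjusted p = 0.0737).

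Apob went from 15.23 and 16.22 CPM in control ESCs to 34.49 and 40.76 CPM in those with the knockout, and stood at 118 and 140.8 CPM in the EB controls. In knockout EBs it was 227.6 CPM in replicate 2 and, apart, 308.2 CPM in the library with liver transcripts. As with Ttr, the 4 groups did not overlap. Apob rose 2.39-fold in knockout ESCs (log2 fold change 1.26 ± 0.17 SE, edgeR adjusted p = 0.000759) and 2.07-fold in knockout EBs (1.05 ± 0.15, edgeR adjusted p = 0.00252), or 1.77-fold in EBs without the library with liver transcripts (edgeR adjusted p = 0.0202). The call in EBs was lost without control EB replicate 1 (edgeR adjusted p = 0.0856).

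Apoa1 had 1.466 and 1.29 CPM in control ESCs against 4.229 and 5.605 CPM in those with the knockout, and 19.56 and 23.13 CPM in the EB controls. In knockout EBs it was 41.09 CPM in replicate 2 and, apart, 112.2 CPM in the library with liver transcripts, 2.73 times its partner, the highest such ratio of the 10 genes in knockout EBs. Both knockout EB libraries lay above the control EBs. In ESCs the difference was 3.58-fold but missed the threshold (log2 fold change 1.84 ± 0.57 SE, edgeR adjusted p = 0.0589), while DESeq2 called it (adjusted p = 0.0195). In EBs Apoa1 rose 3.6-fold (1.85 ± 0.36, edgeR adjusted p = 0.0132) with both libraries, and was 1.93-fold higher, and not called, with replicate 2 alone (edgeR adjusted p = 0.0575). The call was also lost without either control EB library or either control ESC library (edgeR adjusted p = 0.0542 to 0.208).

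Afp was barely present in ESCs, with 0.1628 and 0.6143 CPM in the controls and 0.875 and 0.6551 CPM with the knockout, from 2 to 12 counts per library. In EBs it stood at 12.33 and 12.63 CPM in controls, at 12.1 CPM in knockout replicate 2 and, apart, at 9.489 CPM in the library with liver transcripts. The EB groups lay within a narrow band and far above both ESC groups. The knockout difference was not detected in ESCs, where the counts were low (log2 fold change 0.87 ± 0.52 SE, edgeR adjusted p = 0.316), nor in EBs (-0.21 ± 0.28, 95% interval -0.82 to 0.41, edgeR adjusted p = 0.725). The EB interval reaches neither the size of the change in Ttr nor that in Apoa1 or Apob, all fitted with the library with liver transcripts. Without it the log2 fold changes were 1.13 for Ttr, 0.95 for Apoa1, 0.82 for Apob and -0.04 for Afp.

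Apoe had 428.1 and 490.1 CPM in control ESCs, 459.9 and 327 CPM in those with the knockout, and 511.6 and 530.1 CPM in the EB controls. In knockout EBs it was 648.8 CPM in replicate 2 and, apart, 782.3 CPM in the library with liver transcripts. The ESC groups overlapped and the EB groups did not. Neither knockout difference passed the threshold (log2 fold change -0.22 ± 0.15 SE in ESCs, edgeR adjusted p = 0.369, and 0.46 ± 0.15 in EBs, edgeR adjusted p = 0.0955). With the library with the GC trend as the lone knockout ESC library, the ESC difference was -0.50 and called (edgeR adjusted p = 0.00628), and without that library it was -0.0016 (edgeR adjusted p = 1). Apoe lies at percentile 94.9 of the genes tested for GC content, and with the GC trend removed the EB difference was called at nearly the same size (0.46, edgeR adjusted p = 0.00321), as it was by DESeq2 (adjusted p = 0.04). Without knockout EB replicate 1 it was 0.32 and not called (edgeR adjusted p = 0.514).

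Srgn went from 67.83 and 67.2 CPM to 292.8 and 316.7 CPM between control and knockout ESCs, and from 115.3 and 122.4 CPM to 218.2 and 242.9 CPM between control and knockout EBs. It was the only gene of the 10 with its highest level in knockout ESCs. It rose 4.51-fold in knockout ESCs (log2 fold change 2.17 ± 0.10 SE, edgeR adjusted p = 9.74e-07) and 1.94-fold in knockout EBs (0.96 ± 0.09, edgeR adjusted p = 0.000296). The effect in EBs was smaller by 1.22 ± 0.13 on the log2 scale (edgeR adjusted p = 0.00397), a call lost without control ESC replicate 1 or 2 or control EB replicate 2 (edgeR adjusted p = 0.0725 to 0.105). From ESCs to EBs, Srgn rose 1.76-fold in control cells (0.82 ± 0.09, edgeR adjusted p = 0.000283) and fell to 0.756 of its level in knockout cells (-0.40 ± 0.09, edgeR adjusted p = 0.0157). The fall was no longer called without control ESC replicate 1 or 2 or knockout EB replicate 1 (edgeR adjusted p = 0.0525 to 0.202). Blood cells are another source of Srgn and Apoe. The 8 haematopoietic markers summed to 13.26 to 31.13 CPM per library and to 19.18 to 31.13 CPM in knockout libraries. Of the 8, 2 to 4 held 10 or more counts in a library, with Ptprc at 0 to 2 counts and Tyrobp at 0 or 1 count. Csf1r, Spi1, Laptm5 and Coro1a stood at 1.8, 2.18, 0.869 and 0.777 times control in knockout ESCs. In knockout EBs they stood at 2.39, 3.07, 1.09 and 0.94 times control, and none was called at either stage. The part of blood cells in the levels of Srgn and Apoe was not tested.

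**Figure D4:**
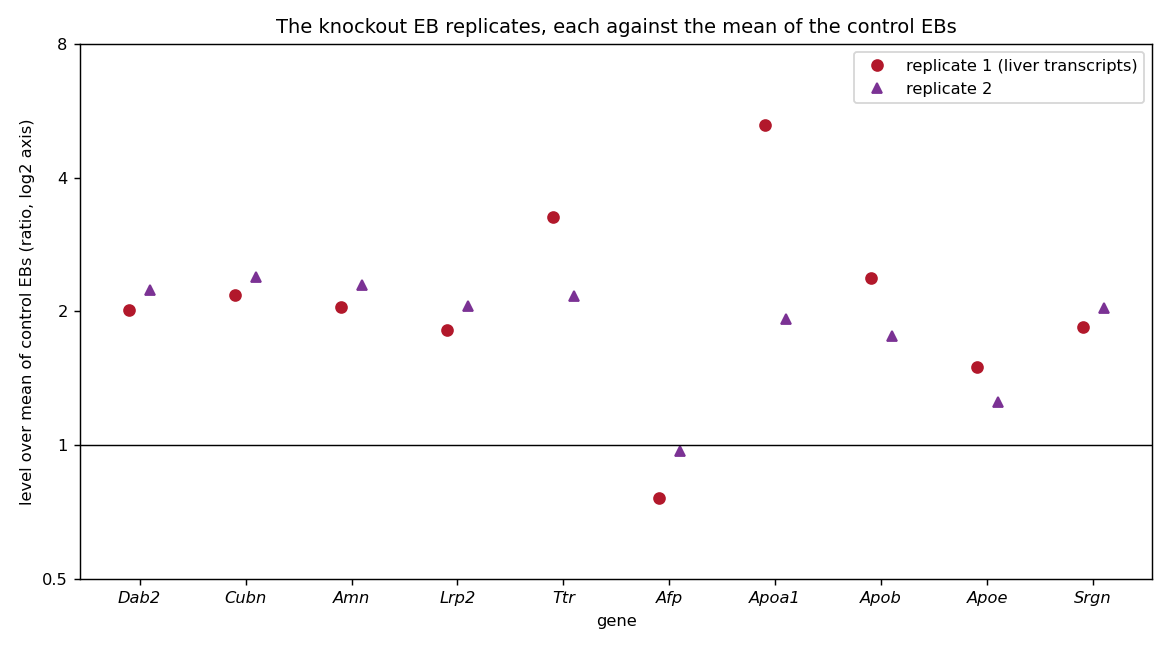
Level of each gene in the 2 knockout EB libraries, each divided by the mean of the 2 control EB libraries, on a log2 axis; circles are replicate 1, which held liver transcripts, and triangles replicate 2. In replicate 2 all genes but Afp and Apoe lie between 1.76 and 2.39 times control, and replicate 1 departs from it most for Apoa1 (5.26 against 1.92).

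In the knockout EB library without liver transcripts, 8 of the 10 genes lay within a narrow range above control. The ratio to the control EB mean was 2.06 for Lrp2, 2.23 for Dab2, 2.29 for Amn and 2.39 for Cubn among the uptake genes. Among the secreted products it was 2.17 for Ttr, 2.04 for Srgn, 1.92 for Apoa1 and 1.76 for Apob, and it was 1.25 for Apoe and 0.969 for Afp. In the library with liver transcripts, Ttr, Apoa1, Apob and Apoe stood at 1.5, 2.73, 1.35 and 1.21 times replicate 2, and the other 6 genes at 0.784 to 0.912 times. The part of liver transcripts in those 4 values was not tested. By comparison, transferrin (Trf), a plasma iron carrier, stood at 177.3 CPM against 11.19 CPM in replicate 2 and 9.646 to 9.747 CPM in control EBs.

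Between the stages, Afp, Apoa1, Ttr and Apob rose in both genotypes. In control cells, Afp rose 29.5-fold from ESCs to EBs (log2 fold change 4.88 ± 0.40 SE, edgeR adjusted p = 2.31e-05), Apoa1 15.5-fold (3.95 ± 0.50, edgeR adjusted p = 0.000522), Ttr 11.9-fold (3.58 ± 0.25, edgeR adjusted p = 9.87e-06) and Apob 8.21-fold (3.04 ± 0.17, edgeR adjusted p = 3.13e-06). The same genes rose 14-fold, 15.6-fold, 9.07-fold and 7.12-fold in knockout cells (edgeR adjusted p = 0.000119, 0.000214, 1.75e-05 and 4.94e-06), with the library with liver transcripts among the EBs. Without it the folds were 15.8 for Afp, 8.42 for Apoa1, 7.31 for Ttr and 6.11 for Apob, all still called (edgeR adjusted p = 0.000293, 5.31e-05, 3.25e-05 and 1.42e-05). Apoe was the only gene of the 10 with no stage call in control cells (1.13-fold, edgeR adjusted p = 0.431), and it rose 1.82-fold in knockout cells (edgeR adjusted p = 0.00409), or 1.66-fold without the library with liver transcripts (edgeR adjusted p = 0.0337). In knockout cells 9 of the 10 genes were called higher in EBs and 1, Srgn, lower, beside 8.23% and 7.11% of all genes tested. That total of 10 calls was 6 without control ESC replicate 1, control ESC replicate 2 or knockout EB replicate 1. Fitted on the knockout ESC and EB groups alone, 4 of the 10 genes were called, all higher in EBs. For Ttr, Apob, Apoa1, Afp and Apoe the difference of the knockout effect between stages did not pass the threshold. The 95% intervals of that difference were -1.13 to 0.34 for Ttr, -0.70 to 0.29 for Apob, -2.39 to 0.22 for Afp and 0.22 to 1.14 for Apoe (edgeR adjusted p = 0.7, 0.788, 0.512 and 0.182). For Apoe the difference was 0.68 ± 0.21 (SE) on the log2 scale, and edgeR called it with the GC trend removed (0.59, adjusted p = 0.019), with no filter on low counts (0.67, adjusted p = 0.000164) and with the library with the GC trend as the lone knockout ESC library (0.96, adjusted p = 0.00198). Without that library it was 0.46 and not called (edgeR adjusted p = 0.0834).

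Levels per kb of exonic sequence set the 10 genes side by side, and depend on the exonic length taken for each gene. In control ESCs, Apoe was highest at 214.8 ± 20.5 CPM per kb (SD, n = 2), followed by Srgn at 30.74 ± 0.20, Dab2 at 26.12 ± 0.32, Lrp2 at 18.34 ± 0.55 and Cubn at 13.96 ± 0.58. Amn at 4.193 ± 0.057 and Ttr at 3.126 ± 0.634 came next, Apob at 1.128 ± 0.050 and Apoa1 at 1.115 ± 0.100 did not differ beyond their spread, and Afp was lowest at 0.1154 ± 0.0948. In knockout EBs, Apoe was still highest at 334.7 ± 44.2 CPM per kb and Dab2 was next at 155.8 ± 11.3. Srgn at 105.0 ± 8.0 and Ttr at 103.1 ± 29.3 lay within their spread of each other, as did Lrp2 at 90.47 ± 8.09 and Cubn at 88.41 ± 5.72. Apoa1 at 62.01 ± 40.7, whose spread reaches its neighbours on both sides, Amn at 37.39 ± 2.83, Apob at 19.23 ± 4.09 and Afp at 3.205 ± 0.548 followed. These means include the library with liver transcripts. In replicate 2 alone, Apoe stood at 303.4 CPM per kb, Dab2 at 163.8, Srgn at 110.6, Lrp2 at 96.19, Cubn at 92.46 and Ttr at 82.31. Amn at 39.39 CPM per kb then lay above Apoa1 at 33.24, followed by Apob at 16.33 and Afp at 3.592. Summed over the 4 uptake genes, the level was 700.1 and 728.7 CPM in control ESCs against 2866 and 3265 CPM with the knockout. At the EB stage it was 1875 and 1981 CPM in the controls against 3825 and 4263 CPM with the knockout.

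Among 23 partners of the uptake pathway, 10 rose and 13 did not pass in knockout ESCs, and 8 rose and 15 did not pass in knockout EBs. Over all genes tested, 8.30% were called higher in knockout ESCs and 4.75% in knockout EBs. The medians of the 23 were 0.27 and 0.20 on the log2 scale against -0.03 and 0.00 over all genes tested. Lrpap1, the chaperone that keeps Lrp2 free of ligand in the endoplasmic reticulum, rose by 1.47 ± 0.08 (SE) in ESCs and 0.87 ± 0.08 in EBs (edgeR adjusted p = 3.81e-06 and 0.000237). The lysosomal proteases Ctsl (1.56 ± 0.08 in ESCs and 0.84 ± 0.08 in EBs, edgeR adjusted p = 2.02e-06 and 0.000197) and Lgmn (1.71 ± 0.09 and 0.93 ± 0.09, edgeR adjusted p = 3.56e-06 and 0.000304) rose as well. In ESCs 16 of the 23 were called higher without the library with the GC trend, 11 higher and 3 lower with it as the lone knockout library, and 12 higher and 2 lower with the GC trend removed. The EB count was 5 of 23 without either knockout EB library or without control EB replicate 2, 3 without control EB replicate 1, and 11 or 6 without a knockout or a control ESC library.

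Of the other 11 tested members of the LDL receptor family, 1 was called higher and 3 lower in knockout ESCs. Among all genes tested, 8.30% were called higher and 6.20% lower in this comparison. The medians of the 11 were -0.08 in ESCs and -0.01 in EBs on the log2 scale. The direction of the ESC calls turned on the library with the GC trend, with 3 higher and 2 lower without it and 2 higher and 6 lower with it as the lone knockout library. At most 1 of the 11 was called without control ESC replicate 1 or 2. Vldlr, the VLDL receptor, rose by 1.07 ± 0.27 (SE, log2 scale, edgeR adjusted p = 0.0267), and Lrp1, a broad endocytic receptor, fell by 0.84 ± 0.16 (edgeR adjusted p = 0.00572). In knockout EBs Lrp1 and Vldlr stood at -0.11 and 0.08 and did not pass (edgeR adjusted p = 0.737 and 0.909).

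Of 14 tested genes of lipoprotein assembly and other apolipoproteins, 5 rose and 9 did not pass in each knockout comparison. The share called higher over all genes tested was 8.30% in ESCs and 4.75% in EBs. The medians of the 14 were 0.71 in ESCs and 0.89 in EBs on the log2 scale. Mttp, which loads lipid onto the Apob protein, rose by 1.41 ± 0.13 (SE, log2 scale) in ESCs and 0.89 ± 0.12 in EBs (edgeR adjusted p = 8.33e-05 and 0.00155), and its level in the library with liver transcripts was 1.02 times that of its partner. Apom rose by 2.21 ± 0.28 in ESCs (edgeR adjusted p = 0.000592) and Apoa4 by 2.65 ± 0.40 in EBs (edgeR adjusted p = 0.00386). In fits without 1 library, which can test more of a list because the count filter then keeps more genes, the EB count was 2 without the library with liver transcripts and 9 without its partner, 3 and 1 without control EB replicates 1 and 2, and 11 without either knockout ESC library. The ESC count was 3 without control ESC replicate 2.

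Of 15 tested plasma-type proteins and vitamin carriers, 4 rose in knockout ESCs and 4 in knockout EBs, beside 8.30% and 4.75% of all genes tested. The EB count was 2 without the library with liver transcripts and 14 without its partner, 13 without either knockout ESC library, 2 without control EB replicate 2 or a control ESC library, and 0 by edgeR without control EB replicate 1, with 5 at an unadjusted p below 0.05. The list's medians were 0.89 and, with that library, 3.28 on the log2 scale. Stra6, the membrane receptor for retinol-binding protein, rose by 3.04 ± 0.23 (SE, log2 scale) in ESCs (edgeR adjusted p = 1.94e-05), from 2.703 to 2.85 CPM in control libraries to 20.96 to 24.79 CPM in knockout libraries, and stood at 2.745 to 3.424 CPM in all 4 EB libraries. Folr1, a folate receptor, rose by 1.17 ± 0.11 in ESCs and 0.79 ± 0.10 in EBs (edgeR adjusted p = 7.31e-05 and 0.00143). Rbp4, the retinol-binding protein that travels with transthyretin, did not pass in either (1.11 ± 0.44 and 1.24 ± 0.40, edgeR adjusted p = 0.123 and 0.0938). In EBs it stood at 9.813 and 17.41 CPM in the controls, at 17.27 CPM in knockout replicate 2, within the control range, and, apart, at 46.69 CPM in the library with liver transcripts.

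Genes listed as regulators of visceral endoderm and markers of parietal endoderm, the other extraembryonic endoderm lineage, were also higher in the knockout. Of 10 listed regulators, 9 rose in knockout ESCs and 7 in knockout EBs, beside 8.30% and 4.75% of all genes tested. Their medians were 1.74 and 0.95 on the log2 scale. The list includes Gata4, Gata6, Sox17 and Sox7, which are not particular to visceral endoderm. Its counts therefore do not tell the 2 lineages apart. Hnf4a, a nuclear receptor that drives apolipoprotein and transthyretin genes, rose by 0.58 ± 0.17 (SE, log2 scale) in ESCs and by 1.12 ± 0.16 in EBs (edgeR adjusted p = 0.0487 and 0.00295). Gata4 rose by 1.85 ± 0.18 in ESCs (edgeR adjusted p = 0.000108) and Gata6 by 1.06 ± 0.20 in EBs (edgeR adjusted p = 0.00969). Of 10 parietal endoderm markers, 10 rose in knockout ESCs, 8 rose in knockout EBs, and 9 were lower in knockout EBs than in knockout ESCs. The shares of all genes tested called in those directions were 8.30%, 4.75% and 7.11%. The medians of the 10 markers were 1.94, 0.91 and -1.26. Sparc, a matrix protein of that lineage, went from 835.7 to 847.4 CPM in ESC controls up to 3163 to 3368 CPM with the knockout, and from 885.2 to 905.2 CPM in EB controls up to 1539 to 1803 CPM with the knockout. The EB counts of both lists fell when any 1 EB or control ESC library was left out. Without knockout EB replicate 1 or 2 they were 3 or 2 regulators and 3 or 3 parietal markers, and without either control ESC library 4 of each. Without control EB replicate 1 or 2, parietal markers numbered 2 or 5 and regulators 0 or 2 by edgeR, with 8 regulators at an unadjusted p below 0.05 in either fit. Without control ESC replicate 1, 6 regulators were called in ESCs. The part of either lineage in the levels of the 10 genes was not tested.

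Over the 8 libraries, the genes with the most similar log2 level to each uptake gene were largely one another and lysosomal proteases. Pearson's r, given as a description over libraries that share 4 groups, was 0.998 between Cubn and Lrp2, 0.996 between Dab2 and Lrp2 and 0.995 between Dab2 and Cubn, with Lgmn at 0.997 to both Dab2 and Lrp2 and Ctsl at 0.999 to Cubn. Amn had Man2b2 (0.998), Fam169b and Plekha6 (both 0.995). Ttr, Apob and Apoa1 were nearest to one another, at 0.996 between Ttr and Apob, 0.993 between Apob and Apoa1 and 0.991 between Ttr and Apoa1. Afp was nearest to Eomes (0.986), Id3 and Dnmt3a (both 0.984), Srgn to Peg3 (0.995), Gsn (0.993) and Retreg1 (0.992), and Apoe to Dym (0.97), Khk (0.969) and Castor1 (0.966).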

How the data were processed

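The deposited table holds raw counts per gene for 8 libraries, not normalized by the authors, per the file headers. HISAT2, featureCounts and DESeq2 are named without versions or settings, with the build mm10, per the submitters' processing notes. The sources used here give neither strand setting nor pairing nor the handling of reads with several matches, so reads of a gene and of an antisense gene cannot be told apart. Genes annotated over Dab2, Cubn and Afp on the other strand held 33 counts at most over all libraries. Of 55401 IDs, 55141 matched a symbol.

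Genes kept by filterByExpr (17125) were tested with edgeR 4.0.16 (R 4.3.3, limma 3.58.1), using TMM factors, 1 mean per group over all 8 libraries, and quasi-likelihood tests with Benjamini-Hochberg adjustment. Calls had an adjusted p below 0.05. The fit was tested on simulated data. Levels are CPM on TMM-scaled library sizes, per kb of exonic length where genes are compared. Depth was 12119763 to 16228426 counts per library, so genes near 1 CPM rest on few counts.

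The 10 genes and the lists around them were chosen with earlier results of these data known, so their counts are descriptions to be read against the share of all genes called. All 10 genes are named, as are Lrpap1, Mttp, Rbp4, Trf, Hnf4a and Zfp462; of each list, genes were eligible when among the 3 smallest adjusted p-values of a comparison, and the 3 genes most alike in level were named for each gene. DESeq2 1.42.0, other scalings and filters, a GC correction from the longest GENCODE M21 transcript, a replicate block, fits on the compared groups alone and fits without each library were alternatives. Promoter windows are RefSeq's, on GRCm38.p6. No sequence is shown for Ttr.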

Additional observations from a re-analysis of the deposited data

Results flagged for a closer look

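For 4 genes the effect of the knockout differed between the stages by the test of the difference itself (edgeR's quasi-likelihood interaction test, EBs minus ESCs, log2 scale). The differences were -1.006 for Dab2, -1.137 for Cubn, -0.9782 for Lrp2 and -1.219 for Srgn, with adjusted p-values of 0.00389, 0.00573, 0.013 and 0.00397. For each of the 4, both knockout libraries lay above both control libraries at either stage. With 2 libraries a group, no group was large enough to test for a single outlying library.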

How the results depend on the processing

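Of 839 values recomputed for the 10 genes under alternatives, 742 kept their direction and their side of the threshold, 59 lost the call, 24 gained it and 14 changed sign. The counts of genes called ranged over the fits that left out 1 library from 6 to 8 for the knockout in ESCs, 4 to 9 for the knockout in EBs (4 without control EB replicate 1), 9 to 9 for EBs against ESCs in control cells, 6 to 10 in knockout cells and 0 to 5 for the difference of the effects. The 0 was edgeR's count without control ESC replicate 1, control ESC replicate 2 or control EB replicate 2, where 5 to 6 genes had an unadjusted p below 0.05. Fitted on the compared groups alone, EBs against ESCs in knockout cells gave 4 calls in place of 10, all 10 with an unadjusted p below 0.05. The cause was not tested.

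All changes of sign were in values near 0 or in uncalled values. The Apoa1 difference of effects, 0.0072 as reported, was -0.0099 with median-of-ratios factors, -0.0052 without a count filter, -0.027 with a mean of at least 1 CPM, -0.088 with a replicate block, -0.012 with DESeq2, -0.10 with the GC trend removed and -0.69 without the library with liver transcripts and the one with the GC trend, an alternative chosen after seeing the data. It ranged from -0.88 to 0.56 when 1 library was left out. The Apoe difference between EBs and ESCs in control cells was -0.013 with the GC trend removed, and its knockout difference in ESCs was 0.021 without both of those libraries. The Apob difference of effects ranged from -0.43 to 0.00045 when 1 library was left out. The replicate numbers did not pair the libraries by the labels, and deviations of same-numbered libraries correlated at -0.0886 to 0.0227. With a replicate block the counts were 7, 8, 9, 10 and 4, as without it. A fit that leaves 1 library in a group assumes that it varies like the other groups.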
